A study of Rattus norvegicus and Mus musculus with 34 samples.

Results

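The comparison described here asked what calcitonin gene-related peptide (CGRP), a neuropeptide released by sensory nerve endings, does to the transcriptome of macrophages that are being activated by lipopolysaccharide (LPS). It holds 11 of the 34 samples of the series, chosen by their labels: 6 samples of RAW264.7 cells given 100 ng/ml LPS alone (LPS) and 5 given 100 ng/ml LPS together with 10 nM CGRP (LPS+CGRP), all for 6 h. RAW264.7 is an established, virus-transformed mouse macrophage line, labelled WT, and every sample therefore comes from 1 line. Both groups received LPS, and resting cells without LPS were not analysed here, so the values compare 2 activated states and do not give the response to LPS itself. The other 23 samples of the series are rat tissue and enter no value below. The members are all 51912 genes of the macrophage table, of which 13525 had enough reads to be tested. The sources do not say whether the replicates were separate cultures, so the p-values measure only the spread between these samples, which may be technical.

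As background, CGRP binds a receptor made of the calcitonin receptor-like receptor (gene Calcrl) and a small accessory protein, RAMP1. That receptor couples to the stimulatory G protein Gs, which raises cyclic AMP, activates protein kinase A and leads to phosphorylation of the transcription factor CREB. LPS acts through TLR4 on a pair of arms: the MyD88 arm, which activates NF-kB and cytokine genes, and the TRIF arm, which induces interferon-β and, through its receptor and STAT proteins, a later wave of interferon-stimulated genes. In macrophages, agents that raise cyclic AMP are known to dampen part of the LPS response and to raise CREB targets such as the NR4A factors and IL-10.

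The labels tie 2 columns of the table to each sample, taken here as sequencing runs of 1 library, and their sums held 55614185 to 71538840 reads in the LPS samples (median 61126007) and 59020290 to 71292263 in the LPS+CGRP samples (median 61992328). The libraries were nearly alike: the correlation of log2 levels across genes ran from 0.998 to 0.999 between samples of the same group and over the same range between samples of different groups, and among the 8544 tested genes with at least 10 CPM (counts per 1000000 reads) the median SD between samples of a group was 0.036 on the log2 scale. On the first principal component, which held 15.3% of the variance, the ranges of the groups overlapped. The library labelled LPS replicate 6 stood apart from the other LPS samples in the sign of its slopes on gene length and GC content. It was also the lowest LPS sample in the lists of antigen presentation, OXPHOS and ribosomal protein genes. Its levels fell with the GC content of the gene, by 0.024 on the log2 scale per 10 percentage points of GC, whereas the other 5 LPS samples rose by 0.0047 to 0.024, and the 5 LPS+CGRP samples all had negative slopes, from -0.017 to -0.0042. It was also the LPS sample with a positive slope on exon length, 0.0039 per doubling, against -0.011 to -0.00068 in the other 5. Other LPS samples stood out elsewhere. LPS replicate 2 was the highest LPS sample in the OXPHOS and ribosomal protein lists, with members 0.052 and 0.051 above their mean over all samples. It was the lowest for mitochondrial DNA genes, at -0.24, and LPS replicate 1 was furthest out on the first principal component, at -9.24. Main counts are also given without LPS replicate 6, which gave the most called genes of the fits with 1 sample left out, or after each sample was corrected for gene length and GC content.

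The cells carried the markers of their label. Of 14 macrophage markers, 13 were above 1 CPM in the mean, among them Lyz2 at 7958 CPM in the LPS samples, Cd14, the LPS co-receptor, at 2075 CPM and Csf1r, the M-CSF receptor, at 558 CPM. The exception was Mertk, with 0 to 5 reads per sample. The summed level of the 14 markers was 13556 to 14159 CPM in LPS and 13470 to 14112 CPM in LPS+CGRP. Markers of other cells were near 0: the 8 fibroblast markers together gave 0.042 to 0.14 CPM in LPS and 0.042 to 0.22 CPM in LPS+CGRP, the 11 neutrophil markers 1.19 to 1.57 and 1.28 to 1.81 CPM, the 8 dendritic cell markers 1.17 to 1.56 and 1.20 to 1.48 CPM, and the 8 B cell markers 1.63 to 2.13 and 1.10 to 1.73 CPM. The 12 T and NK cell markers summed to 9.72 to 10.4 and 9.67 to 10.1 CPM, and nearly all of that was the kinase gene Lck. Of 10 osteoclast markers 7 were above 1 CPM in the mean, with a summed level of 709 to 734 CPM in LPS and 706 to 724 CPM in LPS+CGRP. The largest parts were Nfatc1, at 391 to 417 CPM over all samples, and Mmp9, at 111 to 123 CPM. The exceptions were Calcr, with 0 reads, Oscar, at up to 0.11 CPM, and Itgb3, at up to 0.051 CPM.

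PCR was also run on 3 transcripts in these macrophages: Il1b, for the inflammatory cytokine IL-1β, Nos2, for the inducible nitric oxide synthase, and Arg1, for arginase 1, a marker of alternative activation. Their primers are shown because they fix which part of each transcript the PCR read, and the RNA-seq level of the same transcripts follows. In the GRCm38 (mm10) annotation the Il1b forward primer spans the junction of exons 6 and 7 of 7 on the minus strand (chr2:129365224-129365964), the reverse primer lies in exon 7 (chr2:129365116-129365135), and both are in the coding sequence, giving a product of 128 bases. The Nos2 primers lie on the plus strand in exon 26 (chr11:78957550-78957569) and exon 27 (chr11:78959726-78959743) of 27, both coding, with a product of 145 bases. The Arg1 forward primer spans the junction of exons 7 and 8 of 8 on the minus strand (chr10:24915777-24916044) and is coding, and the reverse primer lies in exon 8 (chr10:24915612-24915633) with 21 of its 22 bases in the coding sequence, giving 185 bases. The positions of primers across a junction include the intron between their parts. The primers, 5′ to 3′, were as follows.
Il1b forward: tggagagtgtggatcccaag
Il1b reverse: ggtgctgatgtaccagttgg
Nos2 forward: caccaagctgaacttgagcg
Nos2 reverse: cgtggctttgggctcctc
Arg1 forward: agaaatttacaagacagggc
Arg1 reverse: acttaggtggtttaaggtagtc

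The receptor that CGRP acts on was transcribed in part. Calcrl (chr2:84330626-84425411, minus strand) was well expressed, with 337 at the lowest, 356 at the median and 366 at the highest CPM in the 6 LPS samples and 358, 362, 344, 349.8 and 361 CPM in the 5 LPS+CGRP samples. All 5 LPS+CGRP values lay within the LPS range, and the log2 difference was 0.0016 ± 0.019 (SE, limma adjusted p = 0.988), with a 95% interval of -0.039 to 0.042. Ramp1 (chr1:91179822-91225196), the partner that makes Calcrl a CGRP receptor, had 0 reads in all 11 samples, which at the shallowest sample allows a level of up to 0.054 CPM (3 reads of the library, counting error only). Ramp3, whose protein with Calcrl forms an adrenomedullin receptor, had 1 read in a single LPS sample and 0 in the other 10. Ramp2, another adrenomedullin partner, had 4 to 12 reads per LPS sample and 2 to 13 per LPS+CGRP sample, or 0.119 ± 0.051 CPM (SD, n = 6) and 0.122 ± 0.068 CPM (SD, n = 5). Per kilobase of exon, Calcrl was at 72.6 CPM in LPS and Ramp2 at 0.036 CPM. Calcr, the calcitonin receptor gene, also had 0 reads in every sample, whereas all 15 housekeeping genes looked at had reads in every sample. The genes further down this arm were present: of 17 receptor, G protein and desensitisation genes 12 were tested, and of 36 genes for adenylyl cyclases, protein kinase A, EPAC and phosphodiesterases 28 were tested.

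None of the signalling genes of that arm passed the test (limma, adjusted over all genes). In the first list 2 of 12 members were higher at an unadjusted p under 0.05 and 0 lower, with a median log2 difference of 0.0069, and in the second 1 of 28 was higher and 0 lower, with a median of 0.013. For comparison, 4.67% of all 13525 genes tested were higher at that level and 5.39% lower, and the median of all genes was 0.00049. The members were Arrb1, for β-arrestin 1, at 0.076 ± 0.023 (log2, SE), Gnaq, for the G protein subunit Gq, at 0.035 ± 0.013, and Akap8, an anchoring protein of protein kinase A, at 0.060 ± 0.023. Gnas, which encodes the Gs subunit, differed by -0.018 ± 0.012 and Prkaca, the main catalytic subunit of protein kinase A, by -0.020 ± 0.018. These genes, like every gene named below other than those of the receptor, Il1b, Nos2, Arg1, Tnf, Il6, Il1a and Mmp9, were chosen after their values were seen. Cmpk2 and Cxcl10 were taken by a rule applied to these same values: a call without overlap between the groups.

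Among the transcripts that the study followed by PCR or as secreted protein, Il1b, Nos2, Tnf, Il6, Il1a and Mmp9 did not pass the test, and their groups overlapped. The 6 chemokines that it also followed as secreted proteins are given with the chemokine genes. Il1b (chr2:129364570-129371139) was at 146 at the lowest, 153 at the median and 169.6 at the highest CPM in LPS and at 164, 145, 165, 157 and 151 CPM in LPS+CGRP. The LPS+CGRP samples lay inside the LPS range except for 1 just below it, and the log2 difference was 0.011 ± 0.039 (SE) with a 95% interval of -0.071 to 0.093 (limma adjusted p = 0.957). Nos2 (chr11:78920787-78960254) was at 127 at the lowest, 136 at the median and 149 at the highest CPM in LPS and at 137, 136, 133, 130.5 and 127 CPM in LPS+CGRP. Its groups overlapped too, and its difference of -0.042 ± 0.031 (interval -0.11 to 0.024) had an adjusted p of 0.674 in limma. Arg1 (chr10:24915221-24927484) was close to absent: the LPS samples had 0 to 2 reads and the LPS+CGRP samples 1, 3, 3, 5 and 2 reads, at or near the limit of 3 reads that a count of 0 allows, and it was not tested.

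The cytokine TNF is an early product of the MyD88 arm. Its transcript was at 535 at the lowest, 547 at the median and 568 at the highest CPM in LPS and at 549, 535, 548, 553 and 539 CPM in LPS+CGRP, a log2 difference of -0.0084 ± 0.016 (interval -0.041 to 0.024, limma adjusted p = 0.898). All 5 LPS+CGRP values lay within the LPS range, and the interval is narrow on both sides of 0. Il1a, for IL-1α, was at 58.2 ± 3.31 CPM (SD, n = 6) and 57.8 ± 4.11 CPM (SD, n = 5), a difference of -0.0096 ± 0.043 (interval -0.10 to 0.081, limma adjusted p = 0.966). Mmp9, a matrix metalloproteinase, was at 117 ± 3.88 CPM (SD, n = 6) and 116 ± 3.71 CPM (SD, n = 5), a difference of -0.015 ± 0.024 (interval -0.065 to 0.035, limma adjusted p = 0.877). Il6 was low, with 101 to 165 reads per sample, at 2.24 ± 0.26 CPM (SD, n = 6) and 2.12 ± 0.089 CPM (SD, n = 5), a difference of -0.056 ± 0.066 with an interval of -0.20 to 0.084 (limma adjusted p = 0.821).

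**Figure D1:**
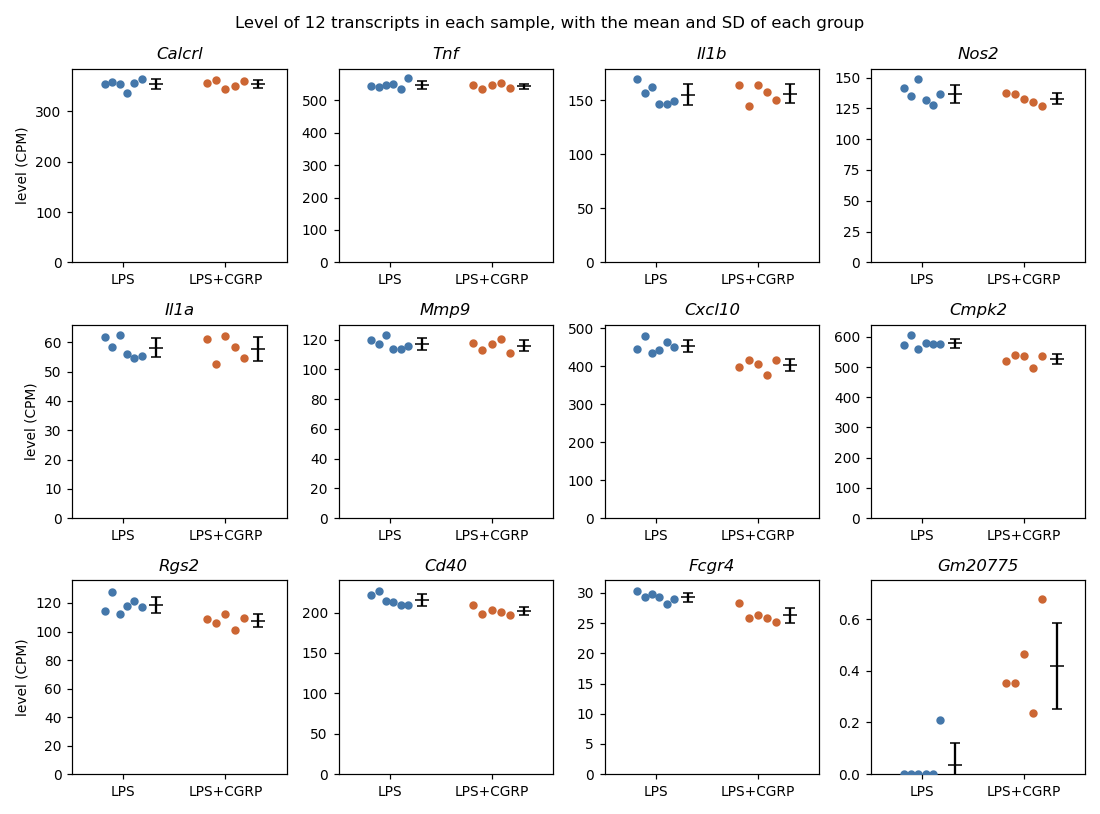
Level of 12 transcripts in CPM (vertical axes, starting at 0) in each of the 6 LPS samples (blue) and 5 LPS+CGRP samples (orange), with the mean and SD of each group in black. The groups overlap for Calcrl, Tnf, Il1b, Nos2, Il1a, Mmp9, Rgs2, Cd40 and Fcgr4, are separate for Cxcl10 and Cmpk2, and Gm20775 has reads in the LPS+CGRP samples and in LPS replicate 6 alone among the LPS samples.

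Across all genes the difference was small. Of 13525 genes tested, 3 passed an adjusted p of 0.05 (limma, 0.0222% of those tested): 2 were lower (0.0148%) and 1 higher (0.00739%) with CGRP, each at an adjusted p of 0.0326. At an unadjusted p under 0.05 there were 631 higher and 729 lower genes, and the sample ranges of the groups did not overlap in 64 genes that were higher (0.473%) and 87 that were lower (0.643%), or 1.12% in all. The median absolute log2 difference was 0.027, and 92.0% of the genes differed by less than 0.1 on the log2 scale. Among the 8544 genes with at least 10 CPM, 8 differed by more than 0.2 and 2 by more than 0.5. The count depended on the test. An edgeR quasi-likelihood fit of the reads called 0 genes at an adjusted p of 0.05 (smallest adjusted p 0.0537) with 1348 at an unadjusted p under 0.05, and DESeq2 called 87, of which 13 were higher (0.284% of the 4571 genes it gave an adjusted p) and 74 lower (1.62%). Without LPS replicate 6, limma called 23 genes, 7 higher and 16 lower.

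**Figure D2:**
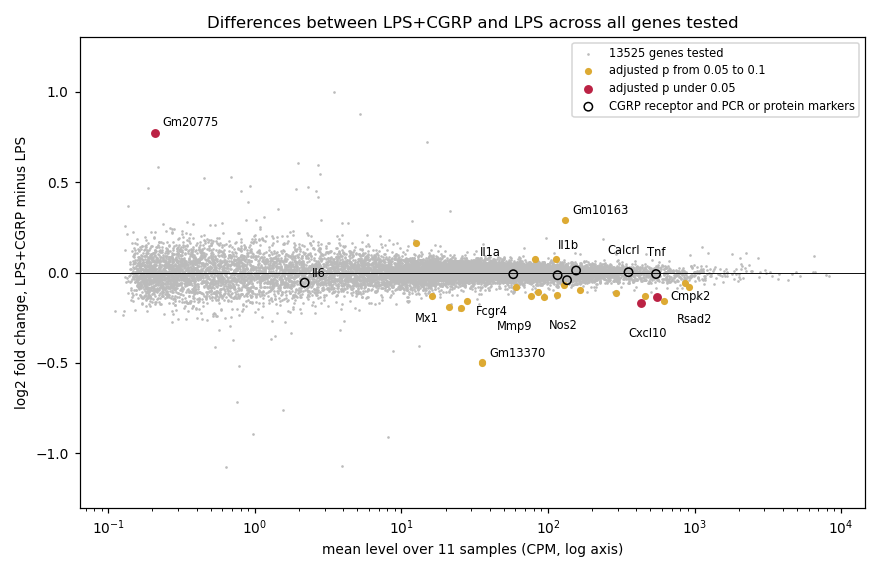
Log2 fold change of LPS+CGRP against LPS (vertical axis) against the mean level over the 11 samples in CPM (horizontal axis, log scale) for the 13525 genes tested. Nearly all genes with over 10 CPM lie within 0.2 of 0, red points mark the 3 genes with an adjusted p under 0.05, yellow points the 22 with one from 0.05 to 0.1, and open circles Calcrl, Il1b, Nos2, Tnf, Il6, Il1a and Mmp9.

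Cxcl10 (chr5:92346638-92348889, minus strand) encodes a chemokine that interferons and NF-kB induce and that draws T cells. It was at 436 at the lowest, 447 at the median and 481 at the highest CPM in LPS and at 397, 417, 405, 378 and 416 CPM in LPS+CGRP. Every LPS+CGRP sample was below the lowest LPS sample, and Cxcl10 fell by 0.17 ± 0.026 on the log2 scale (SE, limma adjusted p = 0.0326), and its mean fell by 11.1%. In bulk RNA, fewer cells that express a gene and less RNA of it per cell cannot be told apart. Cxcl10 and Cmpk2 were named because they passed the test without overlap, so their separate ranges are part of that choice. Cmpk2 (chr12:26469204-26479837, plus strand), an interferon-stimulated gene for a mitochondrial nucleotide kinase, was at 559.6 at the lowest, 576 at the median and 605 at the highest CPM in LPS and at 521, 539, 535, 498 and 537 CPM in LPS+CGRP. Again no sample of one group reached the other, and Cmpk2 fell by 0.14 ± 0.021 on the log2 scale (SE, limma adjusted p = 0.0326), and its mean fell by 9.06%. Its neighbour on chromosome 12, Rsad2 (chr12:26442746-26456452, minus strand), for the antiviral enzyme viperin, was at 624 at the lowest, 649.8 at the median and 685 at the highest CPM in LPS and 567, 603, 599, 546 and 609 CPM in LPS+CGRP. These ranges were also separate, at -0.16 ± 0.030 (log2, SE), but its limma adjusted p of 0.0555 missed the threshold. The calls of Cxcl10 and Cmpk2 were close to that threshold too: both had an adjusted p of 0.0537 in edgeR and 1.16e-06 in DESeq2, and in limma both lost the call when any of LPS replicates 1, 2 and 5 or any of the 5 LPS+CGRP samples was left out (adjusted p 0.0511 to 0.0955 in those 8 fits), while their log2 differences stayed between -0.18 and -0.15 for Cxcl10 and between -0.15 and -0.12 for Cmpk2 over all 11 fits.

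Gm20775 (chrY:10641257-10643107), a Y-linked unprocessed pseudogene, was the called gene that was higher, and it rested on few reads. It had 0 reads in LPS replicates 1 to 5 and 15 in LPS replicate 6, against 25, 22, 28, 14 and 48 reads in the LPS+CGRP samples. The groups did not overlap in CPM, but among the LPS samples only the library that stood apart by GC slope held any read. Its fitted fold change depends on the pseudocount and is not given here, and reads of a pseudogene can come from near-identical copies, so its level is uncertain.

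At an adjusted p under 0.1 (limma) there were 25 genes (0.185%), 20 lower (0.148%) and 5 higher, and 22 of them missed the threshold of 0.05. In 20 of the 25 the ranges of the groups did not overlap, against 1.12% of all genes, but a choice by small p favours separate ranges. The interferon list, which holds 51 of the 13525 genes tested, held 8 of them. The 21 protein-coding ones differed by 0.059 to 0.19 on the log2 scale. Beside Rsad2 they held Gbp5 and Gbp2, guanylate-binding proteins of cell-autonomous immunity, at -0.13 ± 0.022 and -0.13 ± 0.023 (log2, SE), Ifit2, which binds foreign RNA, at -0.13 ± 0.025, Oasl1, an oligoadenylate synthetase-like protein, at -0.078 ± 0.014, and Mx1, an antiviral GTPase, at -0.19 ± 0.039. Outside the interferon list they held Elp5, an Elongator subunit, at -0.081 ± 0.014, Tap1, a peptide transporter of MHC class I, at -0.095 ± 0.017, Fcgr4, an activating Fc receptor, at -0.16 ± 0.028, and Ccl5, a chemokine, at -0.11 ± 0.022. That list does not hold every gene that interferons induce, and Cxcl10 is not in it. The protein-coding genes that were higher were Hells, a chromatin remodeller, at 0.075 ± 0.015, Slc16a6, a monocarboxylate transporter, at 0.075 ± 0.015, and Tshz3, a zinc-finger factor, at 0.17 ± 0.034.

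Among the 22 that missed the threshold, the widest differences were in 3 processed pseudogenes. Gm13370 and Gm10240 were at -0.50 ± 0.088 and -0.49 ± 0.088 (log2, SE), and Gm10163 at 0.29 ± 0.053, all with overlapping groups. The runs of the same libraries disagreed on their size: run 1 alone gave -0.22 and -0.22 for the first pair and run 2 alone -0.76 and -0.74, and Gm10163 was at 0.14 in run 1 and 0.46 in run 2. For Cmpk2 the runs gave -0.13 and -0.14, and for Cxcl10 -0.18 and -0.16. Levels of these pseudogenes are uncertain, since near-identical copies share their reads.

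Most of the listed genes that type I interferon induces were lower with CGRP, by small amounts. This list, like the others, was written with earlier results of these data known. Its members are not independent of each other, so the shares below are a description and not a test. All 51 listed genes were tested, 49 had a log2 difference below 0, against 49.5% of all genes, and 35 were lower at an unadjusted p under 0.05 with 0 higher (68.6%, against 5.39% of all genes lower). Their median was -0.076 on the log2 scale, and 1 member, Cmpk2, passed the adjusted test. In 14 the groups did not overlap (against 0.643% of all genes), among them Ifit1, Ifit3, Usp18, which restrains interferon signalling, and Oasl2. Isg15, a ubiquitin-like modifier, was at 379.6 at the lowest, 398 at the median and 412 at the highest CPM in LPS and 375, 368, 384, 364 and 358 CPM in LPS+CGRP. The ranges of the groups overlapped, and it was at -0.099 ± 0.021 (SE, limma adjusted p = 0.105). Irf7, the factor that amplifies interferon production, was at -0.088 ± 0.024 and Stat2, which carries the interferon signal, at -0.047 ± 0.018. Ifnb1, for interferon-β itself, was low, at 0.420 CPM in LPS and 0.361 CPM in LPS+CGRP, a difference of -0.096 ± 0.068 (interval -0.24 to 0.048).

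The mean deviation of the 51 genes from their mean over all samples separated the groups, at 0.016 to 0.065 on the log2 scale in the LPS samples and -0.084 to -0.016 in the LPS+CGRP samples. LPS replicate 6 lay among the other LPS samples here, at 0.035. The number of lower members was 40 after correction for gene length and GC content, with a median of -0.061, and 37 of 51 without LPS replicate 6, with a median of -0.070. Leaving out 1 sample gave 29 to 39 lower members, and run 2 alone gave 29. Members of the Ifit, Oas and Gbp families are close in sequence, and the sources do not say how shared reads were assigned, which leaves the values of single members of those families uncertain.

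Chemokines and the class I antigen presentation genes were lower in part of their members. Of 23 chemokine genes tested, 9 were lower at an unadjusted p under 0.05 and 0 higher, with a median of -0.054. That was 39.1%, against 5.39% of all genes lower, and Cxcl10 alone passed the adjusted test. After the length and GC correction 7 were lower, and leaving out 1 sample gave 6 to 12 lower and 0 to 1 higher. Cxcl11, which shares its receptor with Cxcl10, was at -0.17 ± 0.048 (log2, SE). The groups did not overlap for the monocyte attractant Ccl7, at -0.099 ± 0.022, and overlapped for the macrophage inflammatory proteins Ccl4, at -0.11 ± 0.023, and Ccl3, at -0.054 ± 0.021. The main monocyte attractant Ccl2 was at -0.053 ± 0.024. Of the chemokines followed as secreted proteins, Ccl5 was at 289.9 at the lowest, 303 at the median and 322 at the highest CPM in LPS and 284, 273, 287, 281 and 278 CPM in LPS+CGRP, with no overlap, and at -0.11 ± 0.022 it missed the threshold (limma adjusted p = 0.0879) but was among the genes called without LPS replicate 6. Ccl22 was at -0.061 ± 0.027, Ccl6 at -0.11 ± 0.064 and Cxcl2 at 0.033 ± 0.028, and for these, Ccl2 and Ccl3 the groups overlapped and none passed the test. Of 25 antigen presentation genes, 15 were lower (60.0%, against 5.39% of all genes) and 0 higher, with a median of -0.050 and no member past the adjusted test. They took in the peptide transporters (Tap2 at -0.063 ± 0.023), the immunoproteasome (Psmb8 at -0.056 ± 0.016, Psmb10 at -0.11 ± 0.031), the class I chain H2-K1 at -0.051 ± 0.020 and Nlrc5, the activator of class I genes, at -0.049 ± 0.022. H2 genes are close paralogs, and their single values are uncertain. The mean deviation of this list in LPS replicate 6, -0.037, lay with the LPS+CGRP samples (-0.045 to 0.0046) and not with the other LPS samples (0.0057 to 0.054), and after the length and GC correction 9 of 25 were lower, with a median of -0.038. Without LPS replicate 1 the count was 9 and without LPS+CGRP replicate 5 it was 8. The part of gene length and GC content in this difference was not tested further.

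**Figure D3:**
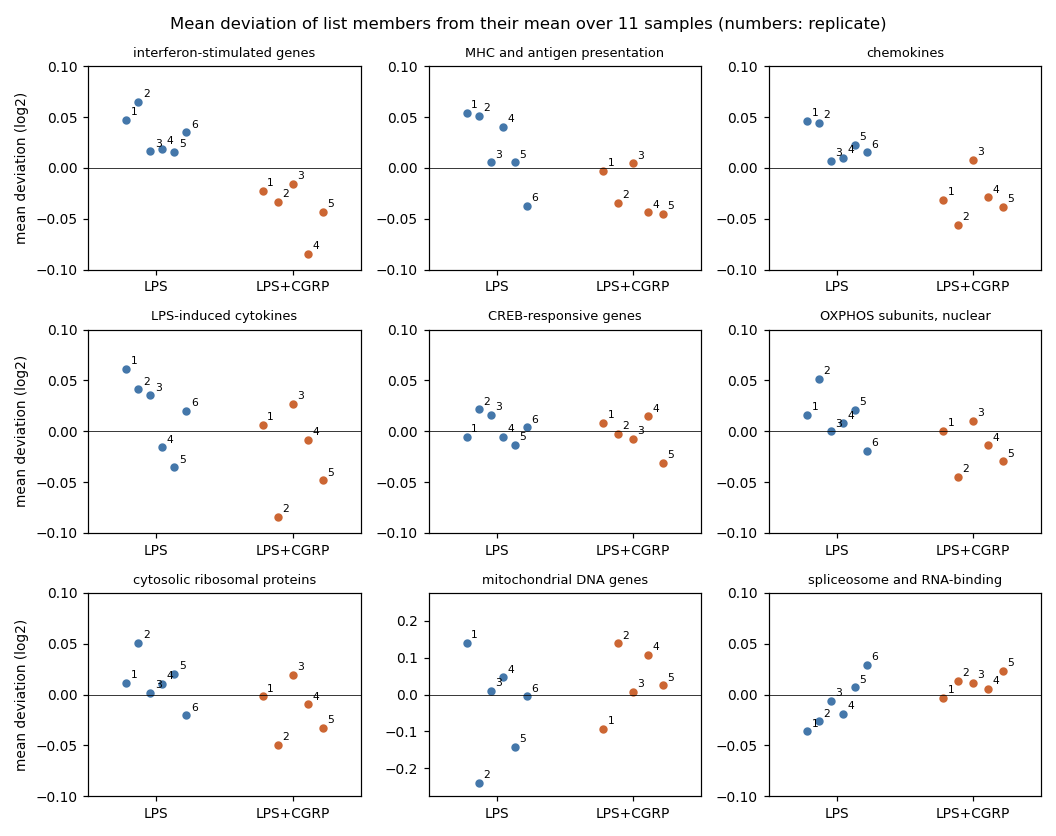
Mean over the tested members of 9 gene lists of their log2 deviation from their own mean over the 11 samples (vertical axes), by group, each point 1 sample with its replicate number. The interferon-stimulated genes separate the groups (0.016 to 0.065 in LPS, -0.084 to -0.016 in LPS+CGRP); in the other 8 lists the groups overlap, and LPS replicate 6 lies low for the antigen presentation, OXPHOS and ribosomal protein lists.

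Cytokine genes that LPS induces showed no called member. Of 23 tested, 6 were lower at an unadjusted p under 0.05 (26.1%, against 5.39% of all genes) and 0 higher, with a median of -0.033. After the length and GC correction 5 were lower and 1 higher, against 4.84% and 3.88% of all genes. Without LPS replicate 1 or LPS+CGRP replicate 2 there were 3 lower, and without the latter the median was -0.0074. The 6 were Cd40, a co-stimulatory receptor, Il27, Csf1, Il18, Il15 and Il1rn, for the IL-1 receptor antagonist. Cd40 was at 209 at the lowest, 214 at the median and 227 at the highest CPM in LPS and 209, 199, 203, 200.4 and 197 CPM in LPS+CGRP, and the groups overlapped slightly, at -0.096 ± 0.021 (SE, limma adjusted p = 0.134). Il27, at -0.13 ± 0.031, and Il15, at -0.084 ± 0.037, are also known as interferon-responsive genes, and Csf1 was at -0.14 ± 0.048. Il10, the anti-inflammatory cytokine, was at 3.47 ± 0.34 CPM (SD, n = 6) and 3.38 ± 0.29 CPM (SD, n = 5), a difference of -0.033 ± 0.068 with an interval of -0.18 to 0.11 (limma adjusted p = 0.914).

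The receptors and signalling proteins of the LPS response showed no called member. Of 35 genes of TLR4 and NF-kB signalling 3 were lower at an unadjusted p under 0.05 (8.57%) and 0 higher, with a median of -0.0076. Of all genes tested, 5.39% were lower and 4.67% higher, so the lower count was near that share. The lower members were Tlr3, the double-stranded RNA receptor, at -0.079 ± 0.023, Relb at -0.053 ± 0.024, and the adaptor Myd88 at -0.044 ± 0.012. For Myd88 the groups did not overlap. Tlr4 was at 27.6 ± 1.23 CPM (SD, n = 6) and 27.1 ± 1.21 CPM (SD, n = 5), a difference of -0.028 ± 0.033 (interval -0.099 to 0.043). Of 35 genes that restrain the pathway 2 were higher (5.71%) and 5 lower (14.3%), with a median of -0.0076. Leaving out 1 sample gave 1 to 3 higher and 2 to 6 lower, the fewest lower without LPS+CGRP replicate 5. Irak3, an inhibitory kinase of the MyD88 complex, was at 0.089 ± 0.027, Dusp5, a phosphatase of ERK, at -0.066 ± 0.016 with no overlap, and Tnfaip3, for the NF-kB inhibitor A20, at -0.0021 ± 0.019 (interval -0.041 to 0.037).

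Genes that CREB is known to drive had no called member. None of 35 tested members was higher at an unadjusted p under 0.05 (4.67% of all genes were) and 5 were lower (14.3%, against 5.39%). Their median was -0.020. After the length and GC correction 1 was higher and 6 lower, with a median of -0.0075, and without LPS replicate 6 there were 9 lower and 1 higher. Rgs2, a regulator of G protein signalling, was at 113 at the lowest, 118 at the median and 128 at the highest CPM in LPS and 109, 106, 113, 101 and 109 CPM in LPS+CGRP. The groups overlapped at their ends, and the difference was -0.14 ± 0.030 (SE, limma adjusted p = 0.113). The other 4 were Atf3 at -0.11 ± 0.042, Odc1, which makes polyamines, at -0.063 ± 0.017, Dusp1, a phosphatase of p38 and JNK, at -0.060 ± 0.021, and Cebpd at -0.049 ± 0.021. Among classical early CREB targets, Fos was at 207 ± 3.91 CPM (SD, n = 6) and 209 ± 4.16 CPM (SD, n = 5), a difference of 0.011 ± 0.016 (interval -0.023 to 0.045), Nr4a1 differed by -0.040 ± 0.044 (interval -0.13 to 0.052), and Crem by -0.020 ± 0.055 (interval -0.14 to 0.096), with limma adjusted p of 0.864, 0.803 and 0.940. Only the 6 h time was sampled.

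Among phagocytic and Fc receptor genes, 4 of 32 were higher and 2 lower at an unadjusted p under 0.05, with a median of 0.0020, and leaving out 1 sample gave 1 to 5 higher, the fewest without LPS+CGRP replicate 1 or 2, and 2 to 4 lower, the most without LPS replicate 1. Over all genes 4.67% were higher and 5.39% lower, and after the length and GC correction 2 of the 32 were higher and 3 lower. The Fc receptors for IgG named here were chosen after their values were seen and stood on both sides. Fcgr3, at 6.6 to 8.0 CPM, is not among them. The activating receptor Fcgr4 was at 28.1 at the lowest, 29.3 at the median and 30.3 at the highest CPM in LPS and 28.3, 25.9, 26.3, 25.8 and 25.1 CPM in LPS+CGRP, with 4 of the 5 LPS+CGRP samples below every LPS sample, and differed by -0.16 ± 0.028 (SE, limma adjusted p = 0.0520). Fcgr1, the high-affinity activating receptor, was at -0.12 ± 0.034 (limma adjusted p = 0.264), and Fcgr2b, the inhibitory receptor, was at 28.2 at the lowest, 30.5 at the median and 31.2 at the highest CPM in LPS and 32.1, 30.8, 33.3, 33.3 and 32.2 CPM in LPS+CGRP, a difference of 0.10 ± 0.027 (limma adjusted p = 0.238) with overlapping groups. These receptors share stretches of sequence, which can split reads between them.

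The effector enzymes of activated macrophages differed little. At an unadjusted p under 0.05, 4.67% of all genes were higher and 5.39% lower. Of 19 genes for nitric oxide, arginine and itaconate 1 was higher (5.26%) and 4 lower (21.1%), with a median of -0.012. Gch1, which makes the cofactor of the NO synthase, was at -0.067 ± 0.023 and Acod1, the itaconate synthase, at -0.035 ± 0.014. Without LPS replicate 3 there were 2 lower and without LPS replicate 5 there were 7. Of 19 genes of the prostaglandin and leukotriene pathway 3 were higher (15.8%) and 0 lower, with a median of 0.0097. Abcc4, an exporter of prostaglandins and of cyclic AMP, was at 0.083 ± 0.025, Pla2g4a, the phospholipase that frees arachidonic acid, at 0.036 ± 0.016, and Ptgs2, for COX-2, at 0.029 ± 0.024 (interval -0.021 to 0.079, limma adjusted p = 0.711). Of 56 lysosome and V-ATPase genes 7 were lower (12.5%) and 0 higher, with a median of -0.013, among them Ctsl at -0.049 ± 0.017 and Grn, for progranulin, at -0.034 ± 0.013. After the length and GC correction 4 were lower. Leaving out 1 sample gave 5 to 11 lower, the most without LPS replicate 6 or LPS+CGRP replicate 3. None of these genes passed the adjusted test.

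Differences followed gene length and GC content across the transcriptome. The median log2 difference was -0.018 for the 1179 genes with up to 1 kb of exon and 0.017 for the 2017 genes with over 8 kb, and it was 0.021 for the 849 genes with up to 40% GC and -0.012 for the 2858 genes with over 55%. Across genes, which are not independent replicates, Spearman's rho of the log2 difference was 0.231 with exon length and -0.231 with GC content. Lists of short or long genes therefore stand beside a background that is not 0. Each sample was corrected with a smooth curve over length and GC, after which 3.88% of all genes were higher and 4.84% lower at an unadjusted p under 0.05.

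**Figure D4:**
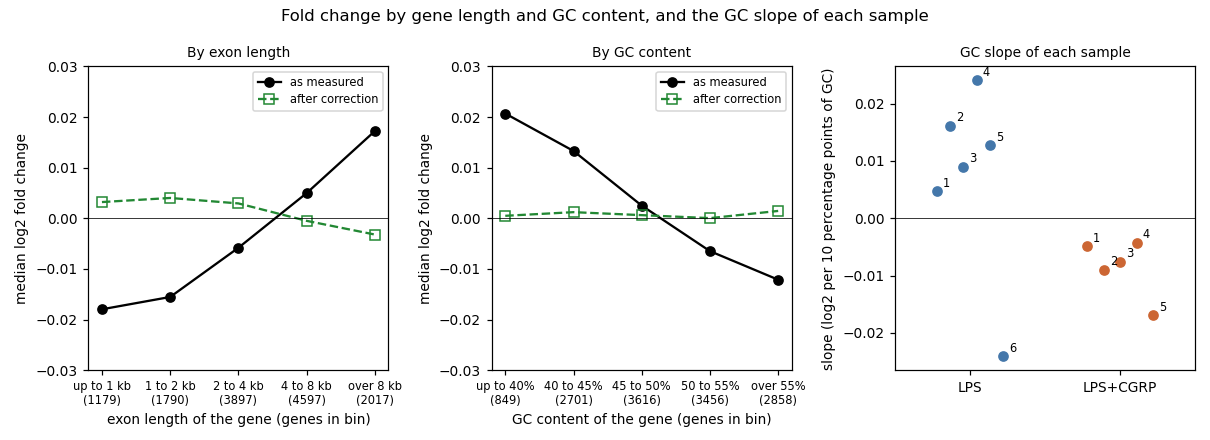
Median log2 fold change of LPS+CGRP against LPS (vertical axes of the left and middle panels) over genes binned by exon length and by GC content, as measured (black) and after correction (green), and the slope of log2 level on GC content in each sample (right panel). The measured medians run from -0.018 to 0.017 with length and from 0.021 to -0.012 with GC, and LPS replicate 6, at -0.024, lies below all other samples.

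Genes of the energy and protein synthesis machinery, most of them short, had medians just below 0. Of 78 nuclear-encoded OXPHOS subunits 18 were lower at an unadjusted p under 0.05 (23.1%, against 5.39% of all genes) and 0 higher, with a median of -0.027. After the correction the median was -0.015, with 10 lower and 1 higher, against 4.84% and 3.88% of all genes. Without LPS replicate 6, 29 were lower, the most of the fits with 1 sample left out, which gave 12 to 29. Ndufb4 of complex I was at -0.097 ± 0.032, Uqcr10 of complex III at -0.085 ± 0.028 and Cox8a of complex IV at -0.071 ± 0.026. Of 79 cytosolic ribosomal proteins 18 were lower (22.8%) and 0 higher, with a median of -0.027. After the correction 4 were lower, near the 4.84% of all genes, with a median of -0.011. Without LPS replicate 6 or LPS+CGRP replicate 3, 34 of these ribosomal proteins were lower. There were 3 lower without LPS+CGRP replicate 2, and 6 to 11 without LPS replicate 2 or 4 or LPS+CGRP replicate 5. The cytosolic ribosomal protein genes took 4.91 ± 0.065% of reads in LPS (SD, n = 6) and 4.83 ± 0.082% in LPS+CGRP (SD, n = 5). Of 78 mitochondrial ribosomal proteins 8 were lower (10.3%) and 0 higher, and 6 were lower after the correction. Leaving out 1 sample gave from 2 (without LPS+CGRP replicate 2) to 11 (without LPS replicate 6), with 3 to 5 without LPS replicate 2 or 4 or LPS+CGRP replicate 5.

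Of the 13 protein genes of mitochondrial DNA, 12 had a log2 difference above 0. A total of 6 were higher at an unadjusted p under 0.05 (46.2%, against 4.67% of all genes) and 0 lower, and none passed the adjusted test. The median was 0.10 as measured and 0.099 after the correction. Leaving out 1 sample gave 4 to 8 higher and 0 to 1 lower, with a median of 0.070 (without LPS replicate 2) to 0.12. The member below 0 was ND3 of complex I, at -0.41. ND5 of complex I was at 0.14 ± 0.041 (log2, SE) and CYTB of complex III at 0.10 ± 0.041. Together these genes took 1.43 to 1.73% of reads in LPS and 1.59 to 1.79% in LPS+CGRP, at means of 1.58 ± 0.10% (SD, n = 6) and 1.69 ± 0.084% (SD, n = 5), and the groups overlapped. The mean deviation of the list ran from -0.24 to 0.14 in LPS and from -0.093 to 0.14 in LPS+CGRP.

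Of all genes tested, 4.67% were higher and 5.39% lower at an unadjusted p under 0.05, and 3.88% and 4.84% after the correction. Of 48 spliceosome and RNA-binding genes 8 were higher (16.7%) and 2 lower (4.17%), with a median of 0.021, and after the correction 1 was higher and 1 lower. Without LPS replicate 6, 16 were higher, without LPS+CGRP replicate 5 there were 0, and without LPS replicate 1, 2 or 4 or LPS+CGRP replicate 2 there were 1 to 4. Among 51 cell cycle and replication genes 7 were higher (13.7%) and 3 lower (5.88%), with a median of 0.011 before and 0.011 after the correction. The higher members numbered 4 without LPS replicate 3 or LPS+CGRP replicate 2 and 11 without LPS+CGRP replicate 1. Cdc6, which licenses replication origins, was at 0.070 ± 0.019, Top2a, a topoisomerase, at 0.061 ± 0.024, and Cdkn1a, for the cell cycle inhibitor p21, at -0.047 ± 0.014. Of 53 genes of actin, migration and adhesion 3 were higher (5.66%) and 8 lower (15.1%), and 4 or 5 were lower without LPS replicate 1 or 4 or LPS+CGRP replicate 5. The lower ones held Marcksl1, an actin-binding substrate of protein kinase C, at -0.059 ± 0.012 with no overlap. Of 37 genes of cell death and survival 7 were lower (18.9%) and 0 higher, with 2 lower after the correction and 4 without LPS+CGRP replicate 5. Of 52 myeloid transcription factors 2 were higher (3.85%) and 7 lower (13.5%). Batf2 was at -0.13 ± 0.027 and Mxd1, a MYC antagonist, at -0.14 ± 0.034, both without overlap, and Irf1 at -0.087 ± 0.022.

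Genes of the osteoclast lineage and of alternative activation held no called member. At an unadjusted p under 0.05, 4.67% of all genes were higher and 5.39% lower. Of 25 genes of osteoclast precursors and fusion 2 were higher and 2 lower (8.0% each), with a median of -0.024. Without LPS replicate 6 or LPS+CGRP replicate 3 there were 5 lower. Csf1r was at 0.040 ± 0.014 (log2, SE), Tnfrsf11a, for the RANK receptor, at 0.053 ± 0.024, Src at -0.040 ± 0.016 and Spi1, for the factor PU.1, at -0.042 ± 0.015. After the length and GC correction 1 was higher and 0 lower, and leaving out 1 sample gave 1 to 5 lower. Acp5, for the phosphatase TRAP, was at 54.7 ± 1.28 CPM (SD, n = 6) and 52.8 ± 2.50 CPM (SD, n = 5), a difference of -0.052 ± 0.027, and Dcstamp, which is needed for cell fusion, differed by -0.050 ± 0.030. Of 18 alternative activation markers 2 were lower (11.1%) and 0 higher, with a median of -0.032. Of 21 matrix proteases and inhibitors 1 was higher (4.76%) and 4 lower (19.0%). The lower ones were Timp1 at -0.13 ± 0.053, Timp2 at -0.14 ± 0.052, Plau, for urokinase, at -0.11 ± 0.039 and Serpinb9, an inhibitor of granzyme B, at -0.10 ± 0.026 with no overlap.

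Over all 41 pathway lists, 34 had a median within 0.03 of 0 on the log2 scale. In 3 lists (interferon-stimulated genes, antigen presentation and chemokines) over 30% of the tested members were lower at an unadjusted p under 0.05, and in 1, the genes of mitochondrial DNA, over 30% were higher. Of all genes tested, 5.39% were lower and 4.67% higher at that level. The lists for glycolysis, the TCA cycle, cholesterol synthesis, lipid efflux, the unfolded protein response, ATF4, heat shock, NRF2, hypoxia, the circadian clock, autophagy, iron handling, complement, purine handling and replication-dependent histones each had 0 to 3 members on either side, some of which moved when single samples were left out, and of 35 proteasome genes 4 were lower and 0 higher. The only list members that passed the adjusted test were Cmpk2 and Cxcl10.

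**Figure D5:**
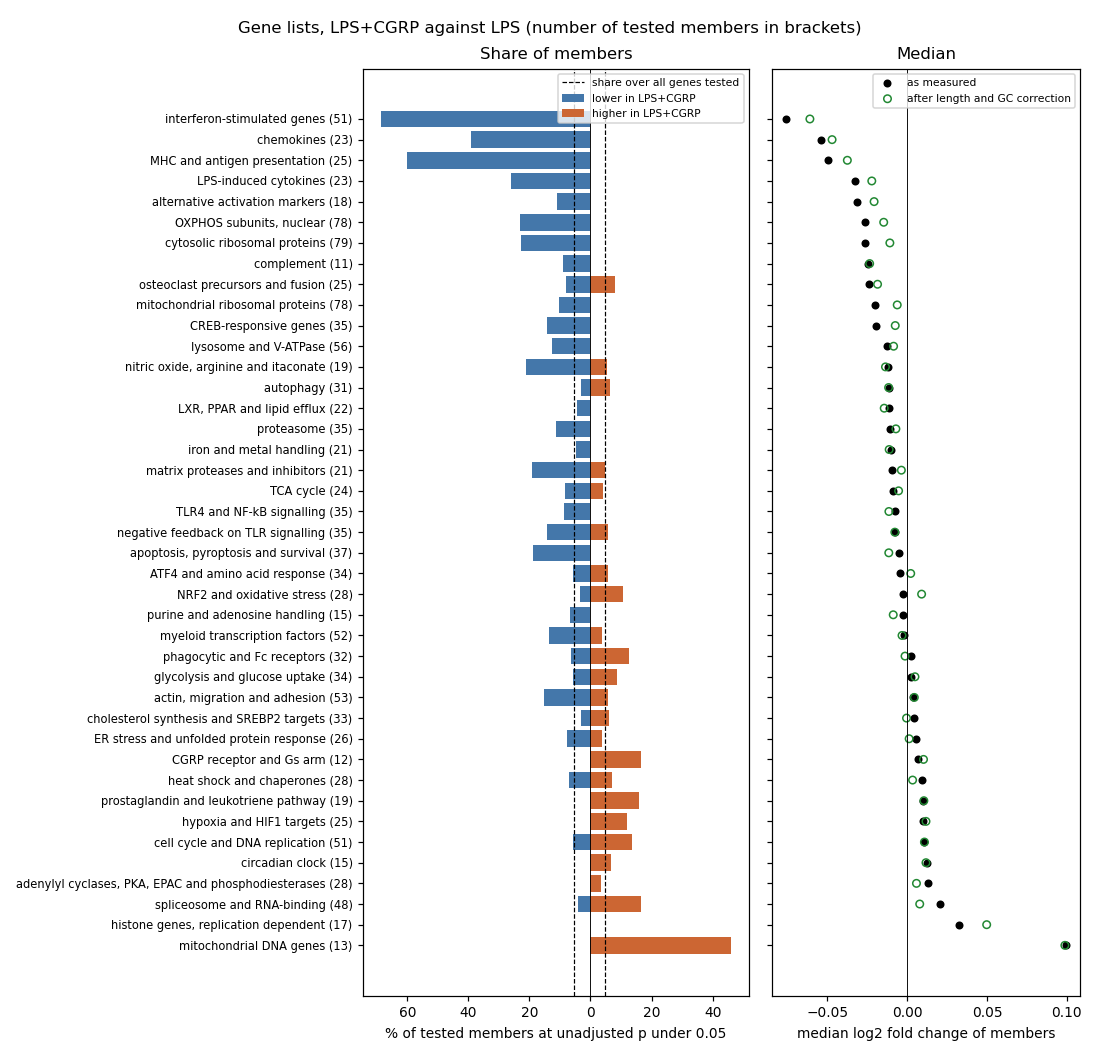
Share of the tested members of 41 gene lists that were lower (blue, left) or higher (orange, right) at an unadjusted p under 0.05, in percent, with dashed lines at the share over all genes tested (5.39% lower, 4.67% higher), and the median log2 fold change of each list as measured (black) and after correction for length and GC (green circles). The interferon list reaches 68.6% lower, and most medians lie within 0.03 of 0.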

How the data were processed

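RNA of 11 RAW264.7 samples was sequenced. The labels tie 2 columns to each sample; they were taken as 2 runs of 1 library, since their counts differed by little more than sampling noise (chi-square per gene 1.32 to 1.69, against 2.62 to 8.22 between samples of a group). Per the labels, reads were trimmed with cutadapt and aligned with STAR to mm10, from a directional library kit. The methods name FeatureCounts among the packages used. Its version and strand setting are not given in the sources used here, so genes that overlap on opposite strands may share reads. The authors deposited 1 table of signal values per gene, in which each of the 22 columns is a read count multiplied by a single factor (0.877 to 1.14). That factor followed the reads per run (Pearson's r = 0.9997 over 22 columns), so the deposited totals differed 1.66-fold between samples where the reads differed 1.29-fold. The factor was undone, which gave whole reads for 100% of 379006 values above 0 within a tolerance of 0.001, and the columns of a sample were summed. The deposited table was the only macrophage file used, and no column lacked a sample.

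Genes that passed edgeR's filterByExpr (13525 of 51912, of which 27300 had no read) were tested with limma 3.58.1 on log2 of TMM-normalised counts per 1000000 reads (CPM) plus a pseudocount of 0.5, with a mean-variance trend, in R 4.3.3 with edgeR 4.0.16. P-values were adjusted by Benjamini-Hochberg over all 13525 genes, with a threshold of 0.05. Fold changes are on that scale, which understates changes of low genes. The error given with a log2 difference is its SE, and intervals are 95% intervals of the limma fit; limits for 0 reads cover counting error only. Alternatives were the edgeR quasi-likelihood test, DESeq2 1.42.0 (on the recovered reads), other scalings, filters and pseudocounts, a replicate block, a lowess correction of each sample for exon length and GC content (span 0.3, GENCODE vM21), 1 run alone, and each sample left out. Genes named were the CGRP receptor genes, Il1b, Nos2, Arg1, Tnf, Il6, Il1a and Mmp9. Called genes whose groups did not overlap with at least 1 CPM were added, a rule applied to these same values. Others were chosen after their values were seen. The members and the gene lists were chosen with earlier results of these data known. A promoter motif description planned for this comparison was not analysed here. Samples of the same number were not treated as pairs.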

Additional observations from a re-analysis of the deposited data

Results flagged for a closer look

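Values of the 110 named genes were searched in each group for a sample far from the others, using Dixon's test (critical ratio of gap to range 0.625 for the 6 LPS samples and 0.71 for the 5 LPS+CGRP samples). Chance flags about 1 in 20 groups, and 12 of the 220 groups looked at were flagged. Among the LPS samples, Gm20775 was at 0.209 CPM in replicate 6 and 0 in the other 5, Calcrl was at 337 CPM in replicate 4 against 355 to 366, and Gnaq was at 109 CPM in replicate 1 against 106 to 107. In LPS replicate 2, Ifit3 was at 555 CPM against 502 to 517, Elp5 at 62.8 CPM against 61.3 to 61.7, and Arrb1 at 46.1 CPM against 49.0 to 50.3. Among the LPS+CGRP samples, Elp5 was at 57.5 CPM in replicate 5 against 58.4 to 58.7, and Acod1 at 1866 CPM in the same sample against 1823 to 1832. Serpinb9 was at 51.1 CPM in replicate 4 against 54.4 to 54.9, Nr4a1 at 5.17 CPM in replicate 3 against 5.50 to 5.54, and in replicate 2 Il10 was at 2.87 CPM against 3.44 to 3.59 and Tnfaip3 at 54.9 CPM against 51.7 to 52.5.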

How the results depend on the processing

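The count of called genes, 3 in limma (1 higher, 2 lower), moved with the processing. It was 0 in edgeR (0 higher, 0 lower; 1348 at an unadjusted p under 0.05), 87 in DESeq2 (13 higher, 74 lower), 11 with scaling by library total (10 lower), 13 with a filter of at least 1 CPM in 5 samples (12 lower), 9 with the length and GC correction (8 lower), 1 with run 1 alone (0 higher, 1 lower) and 4 with run 2 alone. Without a filter 2 genes, Elp5 and Mpp4, were called (1 lower) and none of the 3 main ones, whose adjusted p was 0.213. Cmpk2 missed the threshold in run 1 alone (adjusted p 0.0506) and Cxcl10 in run 2 alone (0.0548), both in limma. With each run entered as a sample of its own, an alternative added after seeing the data that counts 1 library as 2 samples, DESeq2 called 477 genes (186 higher, 291 lower). Leaving out each sample gave 0 to 23 called genes, 0 to 7 higher and 0 to 16 lower. The 0 came without LPS replicates 1, 2 or 5 or LPS+CGRP replicates 2 or 5, and the 23 without LPS replicate 6.

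Samples of the same number did not pair: the correlations of their deviations from the group means were 0.14, 0.011, 0.046, -0.097 and 0.11, and nothing in the labels ties the numbers to a shared culture or day. With the number as a replicate block limma called 28 genes (6 higher, 22 lower), and 38 with the block and the length and GC correction (3 higher, 35 lower).

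The direction of uncalled genes near 0 turned in some fits; the cause was not tested. Calcrl was at -0.018 with the length and GC correction and -0.018 with the replicate block and correction, and Tnf at 0.012 and 0.028 in the same fits and 0.0022 with the block alone. In run 1 alone Il1b was at -0.0025, Tnf at 0.0039 and Mmp9 at 0.0080. Over the samples left out one at a time the log2 difference ran from -0.013 to 0.014 for Calcrl, -0.0073 to 0.037 for Il1b, -0.015 to 0.0022 for Tnf, -0.035 to 0.024 for Il1a and -0.028 to 0.00025 for Mmp9. For genes with at least 10 CPM the median SE of a log2 difference was 0.022, which limits how small a difference could be detected at this depth.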

Other observations

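Genes for the ligand and for another protein tied to the CGRP receptor belong in none of the comparisons. Calca, which encodes αCGRP, had 0 reads in all 11 samples, and Calcb, which encodes βCGRP, had 0 to 2 reads in LPS and 0 to 2 in LPS+CGRP. Crcp, for the CGRP receptor component protein, which also serves RNA polymerase III, had 2222 to 2934 reads in LPS and 2471 to 2871 in LPS+CGRP. Il12b, for a subunit of IL-12, had 0 to 1 reads in LPS and 0 to 3 in LPS+CGRP. Of 21793 protein-coding genes in the table, 6246 had 0 reads in every sample.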
